A study of Rattus norvegicus with 18 samples.

Results

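rno-miR-124 is the mature miRNA that is cut from the transcripts of 3 rat genes, Mir124-1, Mir124-2 and Mir124-3. Its reads were collected here from all 18 small RNA libraries of a developmental series of the rat cortex. A unique sequence tag was counted for rno-miR-124 when it was identical to the mature sequence of 20 nt over their common length, when it began no more than 3 nt away from the mature 5' end, when it ran past the mature 3' end by no more than 3 nt, and when it was 18 nt or longer. This rule took 606 of the 3854058 unique tags, and 8310069 of the 209501253 reads (3.97%).

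The tissue came from Sprague Dawley rats at 8 stages without any treatment: the embryonic days E10, E13 and E17 and the postnatal days P0, P3, P7, P14 and P28. By the labels, the E10 and E13 tissue was forebrain and all later tissue was somatosensory cortex, so stage and tissue cannot be told apart at the 2 earliest stages. The study's methods instead describe whole cortex at these stages, with subcortical tissue and meninges taken off; the names of the labels are used here. From P0 there were 2 tissue samples and from the other stages 1 each, and all 9 were sequenced 2 times. The labels number these libraries technical replicate 1 and 2, which are called run 1 and run 2 here. They do not say that libraries of the same number were sequenced together. The runs are technical replicates, so the spread between animals was seen at P0 alone, and nothing in the labels says how many animals a sample held. Sex and litter are not given in the sources used here.

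miRNAs are cut from hairpin precursors by Drosha and Dicer and guide Argonaute proteins to messenger RNAs. Bases 2 to 8, the seed, select the targets, so a miRNA whose 5' end is shifted carries another seed, whereas its 3' end can be trimmed or extended without a change of the seed. Variants with other ends are called isomiRs. miR-124 is the best known neuronal miRNA: it is switched on as progenitors become neurons, stays abundant in mature neurons, and represses many transcripts of non-neuronal cells, among them Ptbp1, a repressor of neuronal splicing.

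The libraries held between 4899010 and 11043948 clean reads in run 1 and between 12769251 and 16590379 in run 2. Reads counted for rno-miR-124 numbered from 110978 to 2387381 per library, so that 95% Wilson intervals of the level were at most 0.586% of the level to either side and those of a share of rno-miR-124 reads at most 0.254 percentage points. Both cover counting error only. The longest tag was 30 nt in run 1 and 39 nt in run 2, and the shortest 18 nt in every library. Tags of 18 nt made up 5.20% to 9.41% of the reads of all other RNAs in run 1 and 2.25% to 5.38% in run 2, and were more frequent in run 1 in 9 of 9 samples. The run 2 library of E10 stood apart: of 53 other miRNAs with a mean of at least 1000 TPM, the median share of 18-nt reads there was 0.0179%, whereas in the other libraries it lay between 1.04% and 4.85%.

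The first question was how the level of rno-miR-124 changed over development. Levels were given as TPM, the reads of rno-miR-124 scaled to 1000000 clean reads of the library, without division by length since each read is a whole small RNA. rno-miR-124 was abundant from the first stage on and was highest at P0. At E10 it reached 21836 TPM in run 1 and 21487 TPM in run 2, and at E13 15540 and 16910 TPM. At E17 it reached 23854 and 30528 TPM. The 2 embryonic forebrain samples thus had the 2 lowest means of the series, 21662 TPM at E10 and 16225 TPM at E13. This order held in neither run alone: P28 in run 1 (21160 TPM) and P14 in run 2 (20491 TPM) lay below E10.

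In P0 replicate 1 the level was 64662 TPM in run 1 and 160671 TPM in run 2. P0 replicate 2 was lower, with 39742 and 45403 TPM. The level was 38016 and 38464 TPM at P3, and 42084 and 31098 TPM at P7. It was 33610 and 20491 TPM at P14, and 21160 and 29851 TPM at P28. After P0 the means therefore ran from 38240 TPM at P3 over 36591 TPM at P7 and 27050 TPM at P14 down to 25506 TPM at P28. The runs of each of these stages overlapped those of the next.

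**Figure D1:**
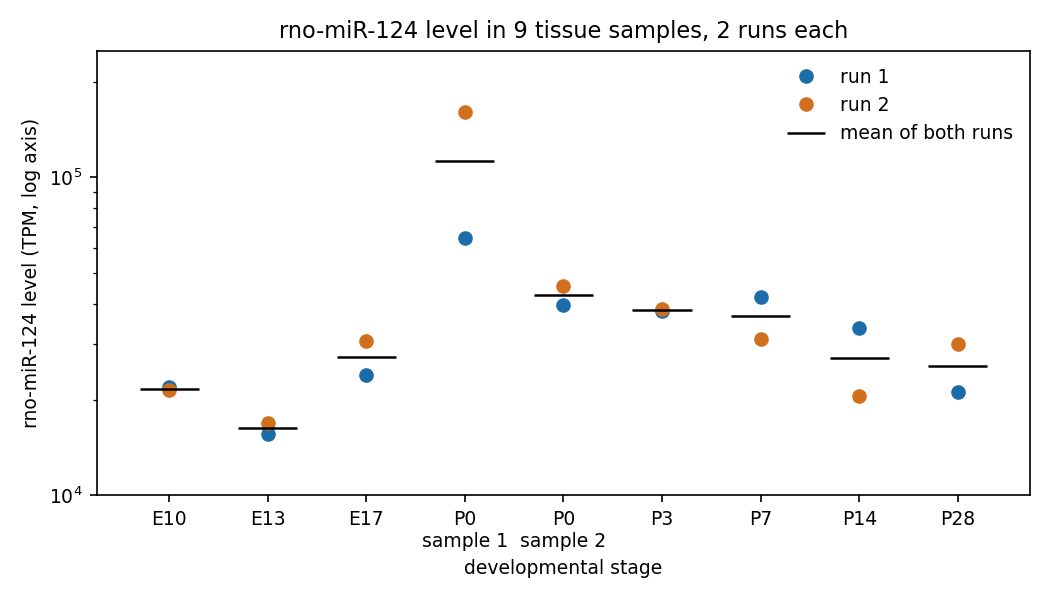
Level of rno-miR-124 in TPM (vertical axis, logarithmic) in the 9 tissue samples in order of stage (horizontal axis; P0 sample 1 and 2 are P0 replicates 1 and 2). Points are the 2 sequencing runs and bars their mean. P0 replicate 1 is highest in both runs, at 64662 and 160671 TPM, and its runs lie farthest apart.

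The only measure of biological spread was the pair of P0 samples, with 77619 ± 49564 TPM (SD, n = 2). They differed by 1.40 on the log2 scale, or 2.65-fold, and the difference was 0.70 in run 1 and 1.82 in run 2. The other 7 stages spanned 1.24 on the log2 scale, from E13 to P3. In ascending order of the mean the stages were E13, E10, P28, P14, E17, P7, P3 and P0. In the means of both runs, 0 of the 21 pairs among the stages other than P0 differed by more than the 2 P0 samples did, and the step from P3 to the P0 mean (1.02) was smaller as well. The lower P0 sample was 1.11-fold above P3. The P0 mean was farther from the other stages, by 1.08 (P7) to 2.26 (E13) on the log2 scale, and E13, E10, P28, P14 and E17 lay more than 1.40 below it. This spread rests on run 2 of P0 replicate 1, with 160671 TPM against 64662 TPM in run 1, which also raises the P0 mean. In run 1 alone, where the P0 samples differed by 0.70, 8 of the 21 pairs differed by more.

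The run-to-run difference was mostly smaller than that between the P0 samples. It was under 0.13 on the log2 scale at E10 (-0.02), E13 (0.12) and P3 (0.02), and largest at P0 replicate 1 (1.31) and P14 (-0.71). Over the 9 samples the log2 level was 14.90 ± 0.64 in run 1 and 15.05 ± 0.95 in run 2 (SD), with a mean difference of 0.15 and a two-sided exact sign-flip permutation p of 0.500. Without P0 replicate 1 the difference was 0.0012.

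Among 692 miRNA sequences counted in the same way, rno-miR-124 ranked 12 at E10, 11 at E13, 8 at E17, 2 in P0 replicate 1, 6 in P0 replicate 2, at P3 and at P7, 7 at P14 and 8 at P28. It supplied between 2.51% (E13) and 15.5% (P0 replicate 1) of the reads counted for miRNAs. In P0 replicate 2 this share was 4.99%, which is closer to the 4.37% at P3 than to the other P0 sample.

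No trend of the level over the 8 stages passed the test. Across the 9 samples the log2 level and the stage order had a Pearson r of 0.16 (exact permutation p = 0.698, adjusted p = 0.698 over 4 measures) and a Spearman rho of 0.23 (exact permutation p = 0.558). Without E10 and P28 r was 0.18 (exact permutation p = 0.728). In run 1 alone r was 0.28 and in run 2 alone 0.07, with adjusted exact permutation p-values of 0.462 and 0.875. The 3 embryonic samples had a log2 level of 14.37 ± 0.37 and the 6 postnatal samples 15.32 ± 0.77 (SD), a difference of 0.94 (exact permutation p = 0.0714, adjusted p = 0.286; the smallest p that 84 assignments allow is 0.0119). The difference was 0.91 in each run. The groups overlapped, since E17 with 27191 TPM lay above P14 and P28.

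In the fit across 478 miRNAs (edgeR quasi-likelihood test), the slope of rno-miR-124 was 0.05 per stage on the log2 scale (SE 0.28, adjusted p = 0.871). In that fit 204 miRNAs, or 42.7%, were called at an adjusted p under 0.05, with 95 rising and 109 falling. The slope depended on the 2 forebrain samples. Without E10 and E13 it was -0.44 (SE 0.16), with an edgeR adjusted p of 0.0465, in a fit that called 194 of 454 miRNAs, again 42.7%, and 21.1% as falling. The correlation of the level with the stage order did not pass its test without these 2 samples (r = -0.45, adjusted exact permutation p = 0.452).

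Markers of other tissues had differing patterns over the samples, and only some of them were highest at E10 and E13. The summed level of 6 miRNAs of mesenchyme and vessels (miR-199a-3p, miR-199a-5p, miR-214, miR-143, miR-145 and miR-126), all 6 of them detected, was 31415 TPM at E10 and 42399 TPM at E13, but between 561 and 4214 TPM in the other 7 samples. Nearly all of it was miR-199a-3p, with 29748 and 40984 TPM. Of the 6, 3 had a falling slope in the edgeR fit (both miR-199a arms and miR-214) and 2 a rising one: miR-143 was at 1161 TPM at E10 and 2352 TPM at P14, and miR-126 at 80.1 and 70.9 TPM. The 3 blood miRNAs measured (miR-451, miR-144 and miR-223, of 4 listed) summed to 1149 TPM at E10, 104 TPM at E13 and at most 76.5 TPM later. Muscle markers (miR-1, miR-133a, miR-206) summed to 13.2 to 1689 TPM, lowest in P0 replicate 2 and highest at P14, with miR-133a at 0 in P0 replicate 2 and at P3. miR-122, the liver miRNA, stayed between 22.7 and 98.7 TPM. The oligodendrocyte miRNAs miR-219-2-3p and miR-338 summed to 22.8 to 288 TPM up to P3 and to 10565 TPM at P28. The part of these tissues in the level of rno-miR-124 was not tested, and in such bulk samples fewer neurons and less rno-miR-124 per neuron cannot be told apart.

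The TMM normalization factors of the fit ran from 0.527 in P0 replicate 2 to 2.80 at E10. With library totals in their place, the slope of rno-miR-124 was -0.0025 (SE 0.16), the median slope of all miRNAs moved from -0.05 to -0.17, and the share of calls that rose went from 46.6% to 20.3%.

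The next question was which molecules made up this level. Of the 606 tags, 45 were found in all 18 libraries, 211 in 1 library, and 61 had a mean level of at least 1 TPM. The 2 most abundant tags supplied 80.2% of the mean level and the 10 most abundant 96.7%. Both leading tags started at the mature 5' end. The first was an 18-nt tag that ended 2 nt before the mature 3' end (mean 17998 TPM), and the second a 22-nt tag that ran 2 nt past it with AA added (mean 12971 TPM). Added bases are here those beyond the mature sequence, whether or not the precursor holds them, which was not analysed. The tag identical to the 20-nt mature sequence ranked 10, with a mean of 260 TPM.

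The 18-nt tag was at 3844 TPM at E10, 8511 at E13, 14075 at E17, 41807 in P0 replicate 1, 17785 in P0 replicate 2, 14426 at P3, 25915 at P7, 19524 at P14 and 16099 at P28 (means of both runs). It was lowest at the 2 earliest stages, and the P0 samples differed more than any neighbouring stages after P0. Its edgeR slope was 0.23 per stage (SE 0.16, adjusted p = 0.331). In run 2 of E10 it was nearly missing, with 13.1 TPM against 7675 TPM in run 1.

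The 22-nt tag was at 14014 TPM at E10, 4681 at E13, 7835 at E17, 46816 in P0 replicate 1, 15036 in P0 replicate 2, 14802 at P3, 5457 at P7, 3413 at P14 and 4687 at P28 (means of both runs). The 3 samples from P7 on thus lay below those of P0 and P3, at about the level of E13. Its edgeR slope was -0.22 per stage (SE 0.22, adjusted p = 0.504). The value of P0 replicate 1 came from run 2, with 92112 TPM against 1521 TPM in run 1.

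**Figure D2:**
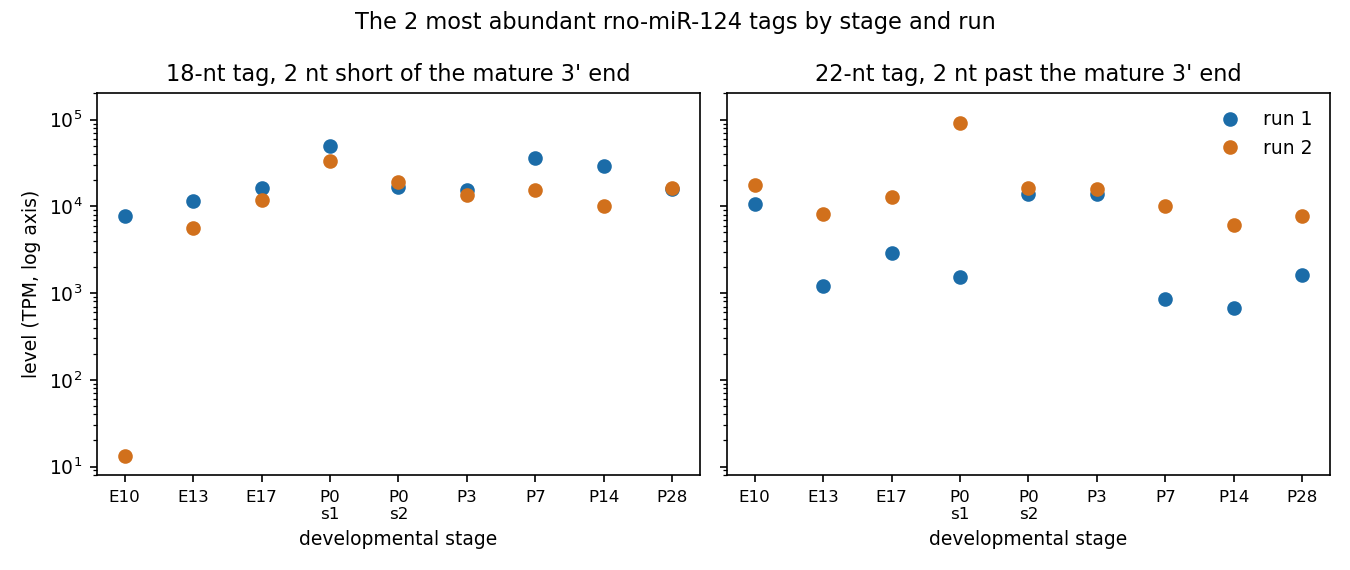
Level in TPM (vertical axis, logarithmic) of the 18-nt tag that ends 2 nt before the mature 3' end (left) and of the 22-nt tag that ends 2 nt past it (right) in each tissue sample (horizontal axis; s1 and s2 are P0 replicates 1 and 2); colours mark the 2 runs. The runs agree within a narrow range for P0 replicate 2 and P3, whereas the 22-nt tag is far lower in run 1 than in run 2 for P0 replicate 1 (1521 and 92112 TPM).

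The other 8 leading tags were lower. A 19-nt tag that ended 1 nt before the mature 3' end had a mean of 2497 TPM, from 472 TPM at E10 to 8240 TPM in P0 replicate 1. Tags that ran 3 nt past the end with AAT or AAA added had means of 1278 and 583 TPM, and both were highest in P0 replicate 2, with 3058 and 1378 TPM. A tag with 1 added A had a mean of 447 TPM, and one with AT added 294 TPM. The 2 leading tags with a shifted 5' end were a 21-nt tag that began 1 nt downstream and ended with AA (662 TPM) and a 19-nt tag that began with an added T and ended 2 nt before the mature end (360 TPM). The first of them reached 7548 TPM in run 2 of P0 replicate 1 and 479.5 TPM or less in run 2 of the other samples, while its highest value in run 1 was 354 TPM.

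The most abundant tags of the rarer ends were all low. Tags that began 2 nt downstream were led by 1 with AA at the 3' end (143 TPM), whereas the leading tags at 2 nt and 3 nt upstream had 1.46 and 0.226 TPM and the leading tag 3 nt downstream 0.0877 TPM. Among early 3' ends, the leading tag that ended 3 nt before the mature end had 32.4 TPM, and those that ended 4 and 5 nt before it had 0.369 and 0.0930 TPM. These 3 carried added 5' bases, since a tag under 18 nt is in none of the libraries: a molecule with the mature 5' end could be seen down to 2 nt before the mature 3' end and no shorter.

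In the edgeR fit over all unique tags, 0 of the 98 rno-miR-124 tags that were tested had an adjusted p under 0.05, and 0 had an unadjusted p under 0.05, while 18.2% of all 38629 tags tested were called. The median slope of the 98 tags was -0.03, against -0.01 for all tags, and 42 were above 0. By 3' end, a slope above 0 was found for 2 of 2 tags that ended 3 nt early, 5 of 7 that ended 2 nt early (median 0.23), 3 of 5 that ended 1 nt early and 5 of 6 at the mature end. Past the end it was found for 4 of 9 tags at 1 nt, 4 of 25 at 2 nt (median -0.21) and 19 of 44 at 3 nt (median -0.02). The difference between these groups was not tested.

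The 3' end of rno-miR-124 was split between these positions, and the split differed between runs. Reads that ended 2 nt before the mature end made up 17.8% to 69.3% of a sample (median 54.5%, means of both runs), and reads that ended 2 nt past it 17.6% to 69.9% (median 30.5%). The 17.8% and the 69.9% are both from E10, whose run 2 library held few 18-nt reads of miRNAs. The next values were 38.3% and 41.9%, both at P3. Reads that ended 1 nt before it made up 2.35% to 9.47%, and reads that ran 3 nt past it 3.47% to 12.5%. The mature 3' end itself held 0.383% to 0.929%, and the position 1 nt past it 0.671% to 4.30%.

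The share of reads that ran past the mature 3' end was 59.1% in run 1 and 99.8% in run 2 at E10, 11.5% and 59.8% at E13, and 19.9% and 52.7% at E17. It was 6.28% and 71.7% in P0 replicate 1, 52.7% and 50.01% in P0 replicate 2, and 52.4% and 57.4% at P3. It was 4.14% and 42.3% at P7, 3.85% and 41.5% at P14, and 12.8% and 36.3% at P28. In run 2 the 3 latest samples were the 3 lowest. In run 1 the values fell into 2 ranges, with E10, P0 replicate 2 and P3 above 52% and the other 6 samples below 20%.

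**Figure D3:**
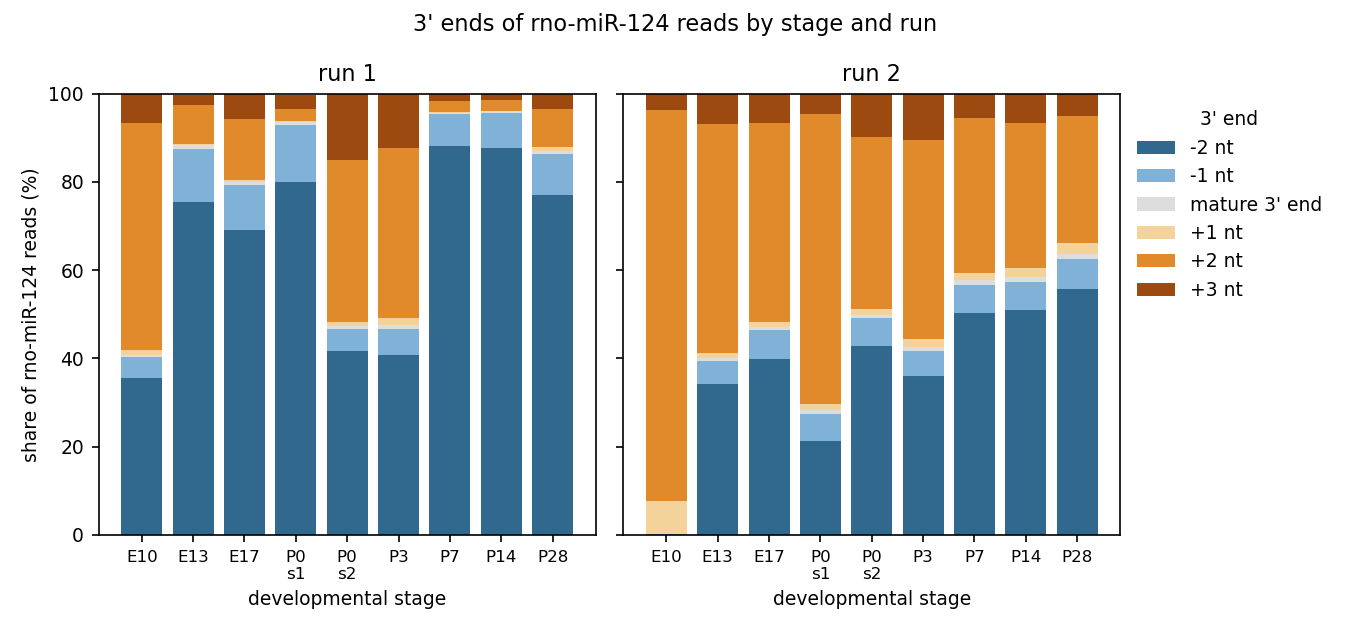
Share of rno-miR-124 reads in percent (vertical axis) by the position of the 3' end relative to the mature 3' end (colours) in each tissue sample (horizontal axis; s1 and s2 are P0 replicates 1 and 2), for run 1 (left) and run 2 (right). Reads ending 2 nt early make up 35.6% to 88.1% in run 1 and 0.0652% to 55.6% in run 2.

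Between runs the difference passed the test. Reads past the mature 3' end made up 24.7% ± 23.1 of rno-miR-124 reads in run 1 and 56.8% ± 19.4 in run 2 (SD over 9 samples), and they were higher in run 2 in 8 of 9 samples (exact sign-flip permutation p = 0.00781, adjusted p = 0.0104 over 4 measures). Reads that ended before it made up 74.6% ± 23.2 and 42.4% ± 19.1, with the same p-values. The exception was P0 replicate 2. rno-miR-124 had a larger share of 18-nt reads than the median of the 53 other abundant miRNAs in 18 of 18 libraries, and the largest of all in 7. The library-wide difference in 18-nt reads between runs, given above, moved in the same direction, and its part in the ends of rno-miR-124 was not tested.

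Over the stages, the mean share of reads past the mature 3' end had a Pearson r of -0.71 with the stage order (exact permutation p = 0.0304, adjusted p = 0.0629) and a Spearman rho of -0.63 (exact permutation p = 0.0773, adjusted p = 0.138). Without E10 and P28, the ends of the stage order, r was -0.40 (exact permutation p = 0.385), so the relation did not hold without those samples. It was -0.52 without E10 alone and -0.67 without P28 alone. Within run 1 r was -0.46 (adjusted exact permutation p = 0.395) and within run 2 -0.81 (adjusted exact permutation p = 0.00992). With E10 left out, r was -0.21 in run 1 (adjusted exact permutation p = 0.721) and -0.74 in run 2 (adjusted exact permutation p = 0.0779). The share of reads that ended before the mature 3' end gave the mirror image (r = 0.71, adjusted exact permutation p = 0.0629), since the mature end itself held few reads. Embryonic samples had 50.5% ± 25.1 (SD, n = 3) and postnatal samples 35.9% ± 14.7 (n = 6) of reads past the end, a difference of -14.5 percentage points that was not past the threshold (exact permutation p = 0.310, adjusted p = 0.413). It was -8.13 points in run 1 and -20.9 in run 2. The difference rested on E10: without E10 it was -0.033 points, and with E10 from its run 1 alone -7.74.

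The bases past the mature 3' end varied less than the positions. Of reads that ran 1 nt past it, 98.4% to 99.4% of a sample carried A, and of reads that ran 2 nt past it, 95.6% to 98.9% carried AA. Reads 3 nt past the end carried AAT in 55.2% to 68.0% and AAA in 19.9% to 32.2%, followed by ATT in 2.34% to 17.0%. Whether these bases come from the precursor was not analysed here.

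The 5' end was much more uniform. Of rno-miR-124 reads, 93.3% to 96.5% of a sample began at the mature 5' end (median 95.9%, means of both runs) and thus held the seed of the mature miRNA. Reads that began 1 nt upstream made up 1.496% to 2.99%, and 89.9% to 98.8% of these carried a T. Reads that began 1 nt downstream made up 1.04% to 3.27%, and those 2 nt downstream 0.192% to 0.565%. Starts 2 or 3 nt upstream stayed below 0.05% in every sample, and starts 3 nt downstream at most at 0.00122%.

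Reads that began 1 nt downstream, with a seed moved by 1 base, were at 1.95% at E10, 1.76% at E13, 1.995% at E17, 3.27% in P0 replicate 1, 1.69% in P0 replicate 2 and 1.85% at P3. They were at 1.08% at P7, 1.04% at P14 and 1.10% at P28, so the 3 latest samples had the lowest means. Single runs overlapped: P0 replicate 1 in run 1 (0.917%) was below P28 in run 1 (1.10%), and E13 in run 1 (1.35%) was below P14 in run 2 (1.46%). In run 2 of P0 replicate 1 the value was 5.63%, and the other 17 libraries did not exceed 2.18%. A read that begins downstream and ends 2 nt early would have fewer than 18 nt and is in none of the libraries. Among reads that ran 2 nt past the end, where both could be seen, the downstream start made up 2.02% at E10, 5.33% at E13, 5.13% at E17, 8.22% in P0 replicate 1, 2.57% in P0 replicate 2, 2.66% at P3, 7.81% at P7, 5.54% at P14 and 4.17% at P28. There the late samples were not the lowest: P7 and P14 were above P3 and P0 replicate 2.

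Reads that began 1 nt upstream made up 1.24% to 3.86% of reads that ended 2 nt early and 1.16% to 2.48% of those that ran 2 nt past the end. Of reads that ran 3 nt past the end, 3.02% to 7.29% began 1 nt upstream.

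**Figure D4:**
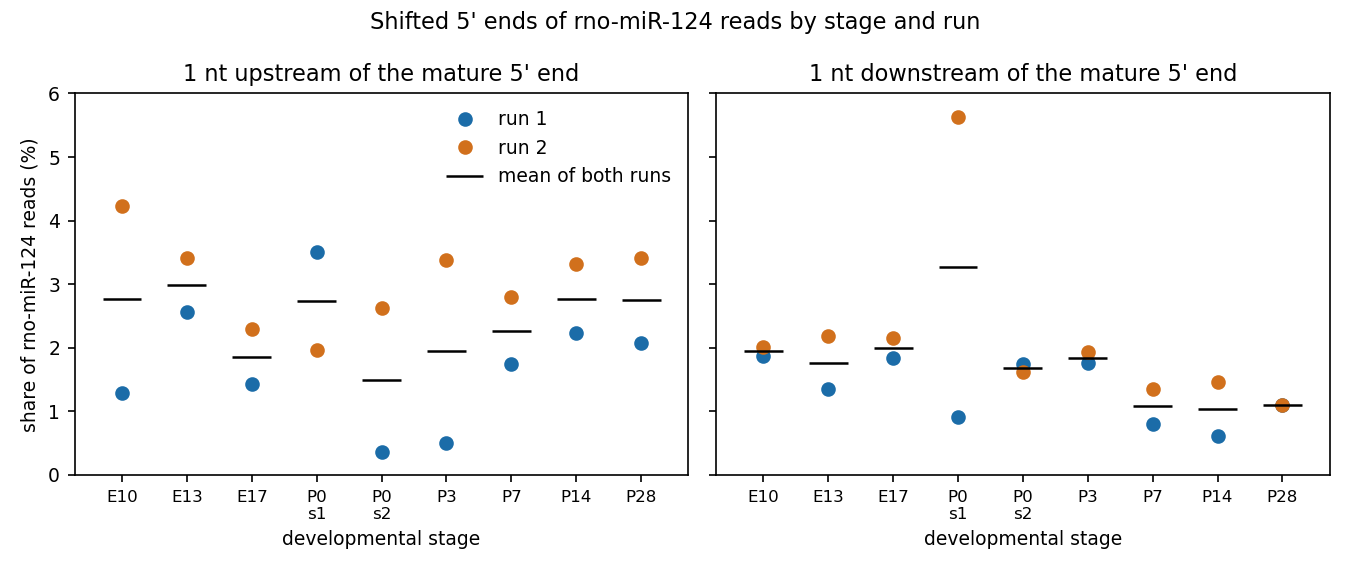
Share of rno-miR-124 reads in percent (vertical axes) that begin 1 nt upstream (left) or 1 nt downstream (right) of the mature 5' end in each tissue sample (horizontal axis; s1 and s2 are P0 replicates 1 and 2); points are runs and bars the mean of both. Run 2 of P0 replicate 1 stands out on the right with 5.63%, and P7, P14 and P28 are lowest there, with means from 1.04% to 1.10%.

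Together the shifted 5' ends came to 3.41% ± 0.77 in run 1 and 5.60% ± 1.32 in run 2 (SD), and were higher in run 2 in 9 of 9 samples (exact sign-flip permutation p = 0.00391, adjusted p = 0.0104). With tags of at least 19 nt this difference of 2.19 percentage points turned to -3.15 and was not called (adjusted exact permutation p = 0.113). Over the stages the mean share had an r of -0.43 with the stage order (exact permutation p = 0.249, adjusted p = 0.332) and a rho of -0.59 (exact permutation p = 0.103), and r was -0.42 without E10 and P28 (exact permutation p = 0.350). It was -0.66 without P0 replicate 1 and -0.65 with that sample's run 1 alone, and -0.16 with E10 from its run 1 alone, with adjusted exact permutation p-values of 0.105, 0.153 and 0.706. With tags of at least 19 nt r turned to 0.47 (adjusted exact permutation p = 0.202). Within run 1 r was -0.39 and within run 2 -0.42 (adjusted exact permutation p-values of 0.395 and 0.364). Embryonic and postnatal samples had 4.84% ± 0.42 and 4.34% ± 1.17 (SD), a difference of -0.500 percentage points (exact permutation p = 0.488, adjusted p = 0.488). The difference was -0.690 in run 1, -0.310 in run 2, -0.963 without P0 replicate 1 and -0.026 with E10 from its run 1 alone, with adjusted exact permutation p-values of 0.452, 0.833, 0.0714 and 0.988.

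Other miRNAs known from neurons gave the setting for these levels. Of 9 that could be counted, 3 had a rising slope in the edgeR fit and 0 a falling one, where 19.9% of all 478 miRNAs rose. Their median slope was 0.13 per stage, against -0.05 for all miRNAs tested. The sequences of the 3 that rose are shown so that their seeds can be compared, with those of miR-137-3p and let-7b-5p, the miRNA most like rno-miR-124 in its pattern over all 9 samples and the one of the 5 most like it whose likeness was highest without P0 replicate 1; they are the RefSeq mature sequences (GRCr8), 5' to 3', with the seed, bases 2 to 8, in capitals. No seed is shared among them, and none of the 691 RefSeq sequences counted has the seed of rno-miR-124.
rno-miR-132-3p: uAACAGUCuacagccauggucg
rno-miR-128-3p: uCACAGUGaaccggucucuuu
rno-miR-138-5p: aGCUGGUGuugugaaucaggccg
rno-miR-137-3p: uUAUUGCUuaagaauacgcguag
rno-let-7b-5p: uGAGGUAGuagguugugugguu

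miR-132-3p, which is induced by neuronal activity, rose by 1.24 per stage (SE 0.13, edgeR adjusted p = 2.99e-05), from 3.33 TPM at E10 and 1.94 TPM at E13 over 31.5 and 14.6 TPM in the P0 samples to 799 TPM at P28. miR-128-3p, a brain-enriched miRNA, rose by 0.93 (SE 0.31, edgeR adjusted p = 0.0286), from 1654 TPM at E10 to 67938 and 62980 TPM in the P0 samples and 173758 TPM at P14. The P0 samples were close to each other for miR-128-3p. Its call was lost without E10 (slope 0.59, edgeR adjusted p = 0.0803), without E13 (0.70, adjusted p = 0.0722), without E17 (0.96, adjusted p = 0.0526) and without both E10 and E13 (0.31, adjusted p = 0.103). miR-138-5p, which acts on dendritic spines, rose by 0.73 (SE 0.13, edgeR adjusted p = 0.000959), from 81.3 TPM at E13 to 1310 TPM at P7.

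The other 6 did not pass. miR-9a-5p and miR-9a-3p, the 2 arms of a miRNA of neural progenitors, had slopes of -0.16 and 0.01. The level of miR-9a-5p was 66760 TPM at E10 but 11234 TPM at P28, and with library totals in place of TMM its slope was -0.29 with an edgeR adjusted p of 0.0163. Without E10 and E13 it was -0.42, with an edgeR adjusted p of 0.0276. miR-7a-5p (-0.24), miR-134-5p (0.05), miR-137-3p (0.13) and miR-218a-5p (0.26) had edgeR adjusted p-values from 0.0885 to 0.766. Both miR-9a-5p and miR-128-3p, which are typical of neural tissue, were found in every sample, with at least 11234 and 1654 TPM. At E13 the summed level of the neuronal list (41797 TPM) was close to that of the mesenchyme and vessel list. At E10 the neuronal sum was higher, with 74303 TPM against 31415 TPM. Of these neuronal sums, miR-9a-5p supplied 18635 TPM at E13 and 66760 TPM at E10.

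**Figure D5:**
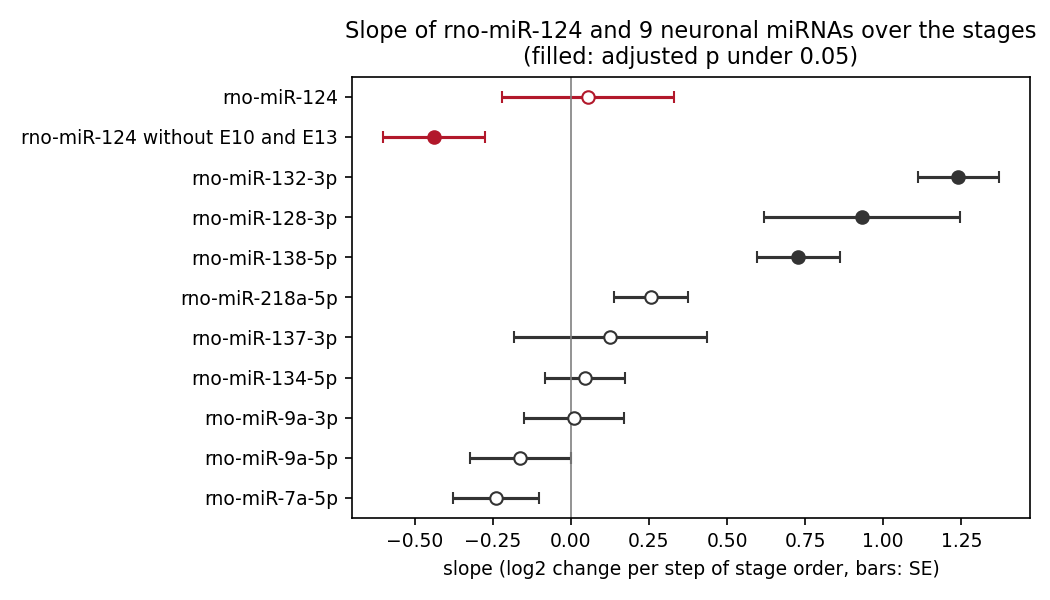
Slope over the stage order, in log2 units per stage (horizontal axis), of rno-miR-124 in the fit of 9 samples and without E10 and E13, and of 9 other neuronal miRNAs (rows); bars are standard errors and filled points have an adjusted p under 0.05. The slope of rno-miR-124 lies near 0 (0.05) with all samples and at -0.44 without E10 and E13, while miR-132-3p, miR-128-3p and miR-138-5p lie between 0.73 and 1.24.

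The 5 miRNAs with the pattern most like that of rno-miR-124, by Pearson's r of log2(TPM + 1) over the 9 samples, were taken from 154 others with a mean of at least 100 TPM. All values come from the same libraries, and the 154 coefficients had a median of -0.23. miR-137-3p came first (r = 0.83). Its level was 1107 TPM in P0 replicate 1 but 97.4 TPM in the other P0 sample, and without P0 replicate 1 its r was 0.40. miR-101a-3p (r = 0.63), with 9192 to 17930 TPM, was followed by miR-376b-3p (r = 0.57), with 1048 TPM in P0 replicate 1 and at most 197 TPM elsewhere. Without P0 replicate 1, r was 0.58 for miR-101a-3p and turned to -0.44 for miR-376b-3p. let-7b-5p (r = 0.55) was at 6322 and 9941 TPM at E10 and E13 and between 39171 and 86486 TPM later, and miR-128-2-5p (r = 0.54) was at 7.30 to 234 TPM. Without P0 replicate 1, 2 of the 5 were still among the first 5: let-7b-5p with r = 0.84 and miR-128-2-5p with r = 0.70.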

How the data were processed

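The authors extracted total RNA with TRIzol, selected small RNAs on a gel, ligated adapters, amplified by PCR, sequenced on an Illumina Genome Analyzer, and removed low-quality reads, adaptors and contaminants. The deposited files hold, per library, each unique tag, its length and its read count, not normalized and not mapped.

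The mature sequence came from the study's primers, checked at the 7 positions (2 to 8) of its list of nucleotide changes. Of the reads that fitted these positions, 95.9% were rno-miR-124 tags by the rule, and 0 of the tags were counted for another miRNA. Other miRNAs were counted by the same rule from 691 RefSeq mature sequences. A sample's level is the mean TPM of its 2 runs.

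Slopes on the stage order (1 to 8) were fitted with edgeR 4.0.16 in R 4.3.3 (limma 3.58.1) on counts summed over runs, with total clean reads as library size, TMM factors, a quasi-likelihood test, features with at least 10 counts in at least 2 samples, and Benjamini-Hochberg adjustment over all features with a threshold of 0.05. The SE of an edgeR slope was taken as the absolute slope over the square root of the F statistic of its test. DESeq2 1.42.0 was an alternative. The biological coefficient of variation that edgeR estimated around the fitted line was 0.621. With 1 sample at most stages, and nothing to show separate litters, p-values measure the spread between these samples. In the edgeR fits this is the spread around a straight line on the stage order. A change over the stages that is not a straight line counts in it too. Correlations, sign flips and embryonic against postnatal samples used exact permutation tests, two-sided, adjusted over 4 measures (level and 3 shares), in Python (3.11.15; scipy 1.17.1, pandas 2.3.3, numpy 2.4.6; figures with matplotlib 3.10.9). The ratio of rno-miR-124 to rno-miR-124* and miR-486 were not analysed here.

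Named tags were the 10 with the highest mean TPM and the leading tag of each 5' and 3' end, and named miRNAs the 5 most like rno-miR-124 and a neuronal list. Members, lists and tests were chosen with earlier results of these data known. The matching rule and the edgeR slope fit were tested on simulated data, and the exact tests on small fixed inputs.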

Additional observations from a re-analysis of the deposited data

How the results depend on the processing

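The slope of the rno-miR-124 level was followed through 23 alternatives and was called in 1 of them. It turned from 0.05 to -0.0025 with library totals in place of TMM, to -0.024 in run 2 alone, to -0.44 without E10 and E13 (edgeR adjusted p = 0.0465) and to -0.16 with only the tags that run past the mature 3' end, an alternative chosen after the data were seen. With each sample left out in turn the slope ran from -0.22 (E10 left out) to 0.33 (P28 left out), and it was -0.13 with E13 left out. With 18 libraries and the run as a replicate block the slope was 0.071 (edgeR adjusted p = 0.737). The runs of a sample are technical, so this p is too small, and the block called 293 of 476 miRNAs against 204 of 478. In run 1 alone 120 of 440 miRNAs were called, and without P28 144 of 475. The other alternatives kept the direction without a call (DESeq2 0.06, identical tags only 0.10, families of the first 18 bases 0.04). The correlation of the level turned from 0.16 to -0.45 without E10 and E13, to -0.10 in run 2 with no E10 sample, and ranged from -0.038 to 0.41 when 1 sample was left out, negative without E13.

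The shares past and before the mature 3' end kept their direction in all 20 alternatives each. They passed the threshold in run 2 alone (r = -0.81 and 0.80), with counts of both runs summed (-0.75 and 0.75), and with only tags of the mature 5' end (-0.71 and 0.70), where the adjustment ran over fewer measures. Without 1 sample at a time they ranged from -0.82 to -0.52 (E10 left out) and from 0.52 to 0.82, and passed without E13 and without P3. The postnatal minus embryonic difference in the share before the mature 3' end, 14.4 percentage points, turned to -0.0012 without E10 and was 14.96 without P0 replicate 1, both chosen after the data were seen. The share of shifted 5' ends turned from -0.43 to 0.47 with tags of at least 19 nt. With these tags the level was 1.23 higher on the log2 scale in run 2 than in run 1 (exact permutation, adjusted p = 0.0156) and the shifted 5' share turned from 2.19 to -3.15 percentage points. The shifted 5' share was then not called between runs (adjusted exact permutation p = 0.113). This alternative leaves out the 18-nt tags, among them the most abundant tag. The neuronal list held 2 to 4 calls in 17 alternatives, with miR-9a-5p as a falling call in place of miR-128-3p without E10 and E13, and 0 rno-miR-124 tags were called in 2. The alternative with templated tags only was not run. Shares depend on the 18-nt limit of the libraries, and stages other than P0 have no second sample.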

Other observations

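Among reads that ran 3 nt past the mature 3' end, those with ATT added made up a larger share at later stages in both runs; this was chosen after the values were seen and was not tested. In run 1 the share was 2.55% at E10, 1.52% at E13, 2.25% at E17, 3.26% in P0 replicate 1, 5.55% in P0 replicate 2, 7.98% at P3, 6.46% at P7, 7.85% at P14 and 12.1% at P28. In run 2 it was 6.79%, 3.15%, 4.86%, 13.0%, 7.60%, 9.67%, 14.0%, 14.9% and 21.98% in the same order. All 6 postnatal samples were above all 3 embryonic samples in each run. The share with AAA was 26.7% to 29.8% in the embryonic samples, 32.2% in P0 replicate 1, 27.3% in P0 replicate 2, 24.1% at P3 and 19.9% to 21.8% from P7 on (means of both runs), so P0 replicate 1 was the highest of all. The share with AAT was 61.5% to 68.0% in the embryonic samples, 55.2% in P0 replicate 1, the lowest of all, 62.7% in P0 replicate 2, 63.2% at P3 and 57.5% to 65.7% from P7 on. These reads were at most 15.1% of rno-miR-124 reads in a library.

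Reads with 1 mismatch to a rno-miR-124 tag, which were left out of the levels, equalled 5.75% to 11.9% of the rno-miR-124 reads in run 1 and 1.40% to 5.38% in run 2, and were higher in run 1 in every sample.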
